A study of Mus musculus musculus x Mus musculus castaneus with 8 samples.

Results

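Lysosomal membrane and hydrolase genes are described here by 8 members: Lamp1, Lamp2, Npc1, Ctsb, Ctsl, Ctsk, Ctsd and Hexa. They were taken by name, as 8 of the 24421 genes in the count table, and the set was chosen by a result of these data, the gain of mus reads of Lamp2 with VX680. Values of any member with VX680 alone against untreated cells are therefore given as a description, with no test. All 8 passed the filter on low counts that left 12643 genes for the test of total expression, and all 8 were among the 10301 genes with enough allele-assigned reads for the test of the allelic ratio.

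The cells were tail fibroblasts from a female F1 hybrid of Mus musculus musculus (mus) and Mus musculus castaneus (cas), so that a read covering a sequence difference can be given to one parental allele. There were 4 groups of 2 libraries: cells given solvent (DMSO) only, called untreated, cells given 5azadC, cells given VX680, and cells given 5azadC and VX680 together. 5azadC (5-aza-2'-deoxycytidine) blocks the upkeep of DNA methylation, and VX680 inhibits Aurora kinases, which act in mitosis. All plates (15 cm) grew for 72 h, with drugs added after 24 h and the solvent volume equalised. Doses, the number of animals, and whether the 2 libraries of a group came from separate cultures are not given in the sources used here, so the spread between libraries may be technical. The series title names X-chromosome reactivation as the subject of the study.

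Lysosomes are acidic organelles in which proteins, lipids and sugars are broken down. The highly glycosylated proteins Lamp1 and Lamp2 line the inner face of their membrane, the proton pump keeps them acidic, and Npc1 moves cholesterol out of them. Cathepsins are the proteases of the lumen, and Hexa encodes the alpha subunit of beta-hexosaminidase, which degrades gangliosides. Fibroblasts use these enzymes to turn over endocytosed matrix, and cathepsin K, best known from bone-resorbing osteoclasts, cleaves native collagen. Lamp2 is X-linked, and the other 7 members are autosomal.

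The short cytosolic tails of Lamp1 and Lamp2 carry a tyrosine signal that sends them to lysosomes, and Lamp2 has alternative last exons that each encode such a tail. The gene-level counts add these transcripts together, so the values below do not tell the Lamp2 forms apart. The last 42 coding bases before the stop codon are shown for the 1 Lamp1 and the 3 Lamp2 transcripts with a consensus coding sequence, 5′ to 3′ (GENCODE M21, GRCm38). Capitals mark the codons of a glycine, a tyrosine, any pair of residues and a bulky hydrophobic residue, which a search of the translated tail found in all 4.
Lamp1-201: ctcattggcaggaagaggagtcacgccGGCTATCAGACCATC
Lamp2-201: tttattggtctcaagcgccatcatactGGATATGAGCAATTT
Lamp2-202: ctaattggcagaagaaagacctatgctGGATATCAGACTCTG
Lamp2-203: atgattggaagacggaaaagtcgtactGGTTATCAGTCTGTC
The 3 Lamp2 tails differ in sequence upstream of the signal, and all 4 end with it.

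Ctsb, Ctsl and Ctsk encode cysteine proteases of the same family, set side by side here because each is described by its own pattern of changes below. The 39 coding bases around the codon of the catalytic cysteine, in capitals, are shown for the 3 genes from the same source.
Ctsb: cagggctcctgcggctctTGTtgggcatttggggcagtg
Ctsl: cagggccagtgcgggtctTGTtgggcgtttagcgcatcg
Ctsk: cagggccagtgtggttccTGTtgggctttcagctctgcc
In this stretch Ctsl was identical to Ctsk at 30 of 39 bases and to Ctsb at 30 of 39, and Ctsb to Ctsk at 25 of 39. Ctsd is an aspartic protease and has no such site.

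Libraries held 6908503 to 11169532 reads in genes, of which 26.1% to 26.9% were assigned to an allele. Pooled over 277 X-linked genes without Xist, the mus share was 4.01% and 4.05% in the untreated libraries, 5.26% and 4.89% with 5azadC, 4.84% and 4.96% with VX680, and 5.74% and 5.80% with both drugs, while Xist, the RNA made from the inactive X, had 77.4% to 93.2% mus reads. Fibroblast markers were present: the summed level of 10 of them was 34740 to 39482 CPM (counts per library scaled to a common total) in untreated cells, 22774 to 26377 with 5azadC, 17343 to 17578 with VX680 and 14510 to 15063 with both drugs, so it was lower in each treated group. In untreated cells most of that sum came from collagens: Col1a1 averaged 13989 CPM in untreated cells and 1884 with both drugs, whereas Vim rose from 3815 to 6807 CPM and Thy1 from 141 to 290 CPM. Macrophage markers, which matter because macrophages are rich in lysosomes, summed to 20.6 to 31.9 CPM over 10 genes, with Adgre1, Tyrobp and Aif1 at 0 in all libraries and Ptprc at 0 in all but 1. Osteoclast markers summed to 19.2 to 27.3 CPM outside the 5azadC group and 33.3 to 54.96 CPM within it, nearly all from Nfatc1, with Dcstamp at 0 throughout. Of 5 keratinocyte markers the sum was 1.36 to 2.66 CPM, and of 5 endothelial markers it was 1.17 to 1.18 CPM in untreated cells, 1.90 to 2.47 with 5azadC, 7.27 to 9.19 with VX680 and 4.69 to 5.34 with both drugs, all 3 that could be tested rising with VX680. The part of any of these markers in the members' changes was not tested, and fewer cells of a type cannot be told apart from less RNA per cell.

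In untreated cells Lamp1 had the highest level per length, 520 ± 9.39 CPM per kb of gene length (SD, n = 2), and Npc1 the lowest, 14.7 ± 0.338 CPM per kb. Between them, on the same scale, stood Ctsd at 275, Hexa at 127, Lamp2 at 104, Ctsl at 102, Ctsb at 87.4 and Ctsk at 49.97. Lamp2 and Ctsl were the only neighbours in that order whose libraries overlapped. With each drug and with both, Ctsb took the third rank, whereas Lamp2 took the sixth. Ctsk stood last with both drugs, at 10.4 CPM per kb against 11.1 for Npc1, with overlapping libraries.

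**Figure D1:**
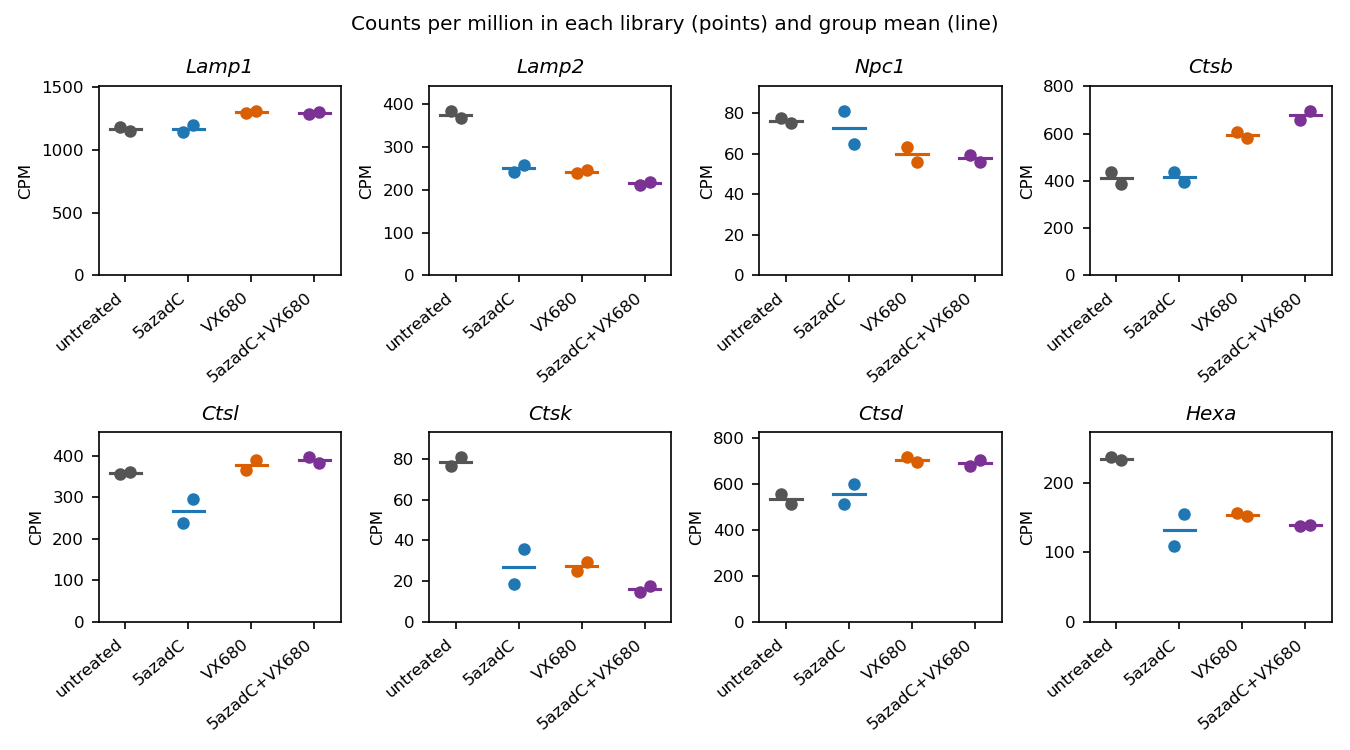
Level of each of the 8 genes (vertical axis, CPM, starting at 0) in the 2 libraries of each group (points) with the group mean (line). Lamp1 stays between 1145 and 1314 CPM in all libraries, Ctsb and Ctsd are higher in every library with VX680, and Lamp2, Ctsk and Hexa are lower in every treated library.

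Of the membrane proteins, Lamp2 fell with 5azadC and with both drugs, Npc1 fell with both drugs, and Lamp1 passed no test. Lamp2 stood at 385 and 367 CPM in the untreated libraries, 242 and 259 with 5azadC, 238 and 245 with VX680, and 211 and 219 with both drugs. All 6 treated libraries lay below both untreated ones. The log2 fold change was −0.59 ± 0.085 (SE; edgeR adjusted p = 0.000104) for 5azadC against untreated and −0.81 ± 0.0857 (adjusted p = 3.17e-06) for both drugs, and it was −0.64 ± 0.085 for VX680 alone. Both drugs lay 0.22 below 5azadC alone on the log2 scale (change −0.22 ± 0.0859, adjusted p = 0.0804), which did not pass, although without 5azadC replicate 1 it did (adjusted p = 0.0326).

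The lysosomal cholesterol transporter Npc1 had 77.5 and 75.05 CPM in untreated cells, 81.3 and 64.6 with 5azadC, 63.3 and 56.1 with VX680, and 59.5 and 56.0 with both drugs. The 5azadC libraries straddled the untreated ones, and the libraries with VX680 lay below them. Against untreated cells both drugs gave a log2 fold change of −0.40 ± 0.122 (adjusted p = 0.012), 5azadC alone −0.06 ± 0.119 (adjusted p = 0.706), and VX680 alone −0.35 ± 0.12. The call with both drugs was lost when scaled by library totals (adjusted p = 0.0642), without untreated replicate 1 (0.0565) and without replicate 2 of the combination (0.0828). Against 5azadC alone the change with both drugs was −0.34 ± 0.122 (adjusted p = 0.057), which passed without the filter on low counts (0.0268), with the replicate number as a block (0.0463) and without 5azadC replicate 2 (0.00487).

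Lamp1, the most abundant member, had 1183 and 1153 CPM in untreated cells, 1145 and 1198 with 5azadC, 1297 and 1314 with VX680, and 1288 and 1300 with both drugs. The VX680 libraries, with or without 5azadC, lay above the rest by a margin that the tests run did not call. For both drugs against untreated the log2 fold change was 0.15 ± 0.0795 (95% interval −0.02 to 0.32, adjusted p = 0.13), and it passed with library totals as the scale (0.25, adjusted p = 0.0136), a scaling that itself moved the median of all genes by 0.104. Against 5azadC alone the change was 0.14 ± 0.0795 (adjusted p = 0.21), with the same dependence (adjusted p = 0.0294).

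Of the 4 proteases, Ctsb and Ctsd rose where VX680 was combined with 5azadC, Ctsk fell in each tested comparison with untreated cells, and Ctsl fell with 5azadC alone. Cathepsin B (Ctsb), a protease with both endopeptidase and exopeptidase activity, had 438 and 388 CPM in untreated cells, 437 and 397 with 5azadC, 607 and 581 with VX680, and 658 and 697 with both drugs. All 4 libraries with VX680 lay above all 4 without it. The log2 fold change of both drugs was 0.71 ± 0.0924 (adjusted p = 1.98e-05) against untreated and 0.70 ± 0.0924 (adjusted p = 0.000128) against 5azadC. 5azadC alone gave 0.01 ± 0.0923 (95% interval −0.19 to 0.21, adjusted p = 0.925), and VX680 alone 0.52 ± 0.0922.

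Cathepsin D (Ctsd), the main aspartic protease of lysosomes, had 557 and 511 CPM in untreated cells, 512 and 600 with 5azadC, 716 and 696 with VX680, and 679 and 704 with both drugs. The 4 libraries with VX680 again lay above the 4 others. Its log2 fold change with both drugs was 0.37 ± 0.0941 (adjusted p = 0.0041) against untreated and 0.31 ± 0.0941 (adjusted p = 0.0258) against 5azadC, and VX680 alone gave 0.40 ± 0.094. The rise over 5azadC alone was lost without 5azadC replicate 1 (0.20, adjusted p = 0.102), without either VX680 library (0.0603 and 0.0605) and without either library of the combination (0.104 and 0.175). For 5azadC alone the change was 0.06 ± 0.0941 (adjusted p = 0.656).

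Cathepsin L (Ctsl), an endopeptidase of broad specificity, had 356 and 360 CPM in untreated cells, 238 and 294 with 5azadC, 365 and 390 with VX680, and 396 and 383 with both drugs. The 5azadC libraries were the only ones below the untreated ones. The log2 fold change was −0.43 ± 0.101 (adjusted p = 0.00406) with 5azadC and 0.12 ± 0.101 (adjusted p = 0.327) with both drugs. Both drugs against 5azadC alone gave 0.55 ± 0.102 (adjusted p = 0.00155), and VX680 alone against untreated 0.08 ± 0.101.

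Cathepsin K (Ctsk) had the widest range of the 8 members, 2.26 between the highest and the lowest group mean of log2 CPM. It had 76.4 and 80.8 CPM in untreated cells, 18.4 and 35.8 with 5azadC, 24.8 and 29.4 with VX680, and 14.8 and 17.8 with both drugs. Every treated library lay below both untreated ones, and the 5azadC libraries differed from each other more than those of any other group. The level was 2.93-fold lower with 5azadC (log2 fold change −1.55 ± 0.217, adjusted p = 7.91e-05) and 4.82-fold lower with both drugs (−2.27 ± 0.232, adjusted p = 2.21e-06), and VX680 alone gave −1.54 ± 0.216. Against 5azadC alone both drugs gave −0.72 ± 0.246 (adjusted p = 0.0477), a call that ended with library totals as the scale (0.0774) and in all but 1 of the fits that left out a library. Without 5azadC replicate 2 that change was −0.17 (adjusted p = 0.548). Against VX680 alone both drugs gave −0.73 ± 0.244 (adjusted p = 0.102), which passed without the filter on low counts (0.000376), with the replicate block (0.0385) and without 5azadC replicate 1 (0.00231) or 2 (0.00257).

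Hexa had 237 and 233 CPM in untreated cells, 109 and 155 with 5azadC, 156 and 152 with VX680, and 138 and 139 with both drugs. Every treated library lay below both untreated ones. The log2 fold change was −0.83 ± 0.128 (adjusted p = 0.000174) with 5azadC, −0.76 ± 0.128 (adjusted p = 0.0002) with both drugs and −0.61 ± 0.127 with VX680 alone. Both drugs did not pass against 5azadC (0.07 ± 0.13, adjusted p = 0.723), although without 5azadC replicate 2 they did, as a rise of 0.35 (adjusted p = 0.0139), and without 5azadC replicate 1 the value was −0.17.

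In all, 5azadC against untreated called 0 members as higher and 4 as lower (Lamp2, Ctsl, Ctsk and Hexa), where 22.6% of all tested genes rose and 19.6% fell. Both drugs against untreated called 2 higher and 4 lower, where 28.4% of all genes rose and 27.3% fell. Both drugs against 5azadC called 3 higher (Ctsb, Ctsl, Ctsd) and 1 lower (Ctsk), where 9.98% rose and 14.8% fell. Both drugs against VX680 called none in edgeR, where 2.45% rose and 4.05% fell. There 1 member, Ctsk, had an unadjusted p under 0.05, and DESeq2 also called 0. The median log2 fold change over the 8 members was −0.24, −0.14, 0.11 and −0.04 in these 4 comparisons, against medians within 0.0128 of 0 over all tested genes. The comparisons share libraries (the first 2 share the untreated ones), so their values are given side by side and were not set against each other.

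**Figure D2:**
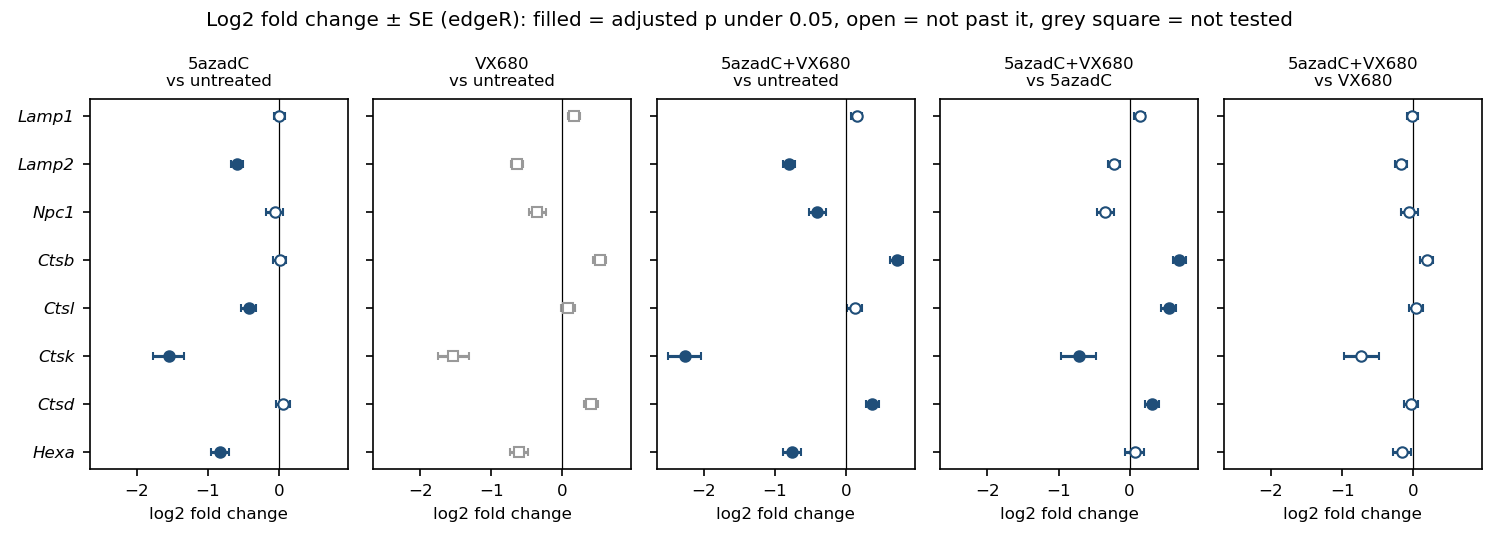
Log2 fold change (horizontal axis) with its standard error for the 8 genes in 5 comparisons, with filled circles for an adjusted p under 0.05, open circles for the rest, and grey squares for VX680 against untreated, which was not tested. Ctsk lies farthest to the left in each of the 3 comparisons with untreated cells (−1.55, −1.54 and −2.27), and Ctsb and Ctsd lie to the right of 0 wherever VX680 was set against cells without it.

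The mus share of Lamp2 chose it for this set, and its values describe that choice. In untreated cells 2 of 1270 and 3 of 850 allelic reads were mus, a share of 0.157% (exact 95% binomial interval 0.0191 to 0.568%) and 0.353% (0.0728 to 1.03%). With VX680 the mus reads were 12 beside 734 cas reads and 13 beside 555, or 1.61% (0.834 to 2.79%) and 2.29% (1.22 to 3.88%). Both VX680 libraries lay above both untreated ones, as they did for 24 of 275 X-linked genes (8.73%). The intervals cover counting error only. The authors' deposited table lists a log2 fold change of 2.42 for the mus allele of Lamp2 with VX680 and of −0.54 for its cas allele.

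Since the untreated and VX680 libraries were used to choose Lamp2, its ratio is tested only between both drugs and 5azadC, and its other changes are a description. With 5azadC there were 4 mus beside 648 cas reads (0.613%) and 2 beside 603 (0.331%). With both drugs there were 0 mus beside 556 cas reads, which allows a share of up to 0.54%, and 5 beside 505 (0.98%). The groups overlapped with the untreated one in both cases. The log2 change of the mus against cas ratio was 0.998 ± 0.805 with 5azadC and 0.97 ± 0.845 with both drugs. Between both drugs and 5azadC it was −0.03 ± 0.898 (95% interval −1.84 to 1.79; edgeR adjusted p = 1).

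Nearly all reads of Lamp2 were cas reads in every group, also where its total was lower. Scaled as CPM of all allelic reads, cas reads of Lamp2 went from 432 in untreated cells to 279 with 5azadC, 287 with VX680 and 293 with both drugs, while mus reads were 1.11, 1.30, 5.72 and 1.38.

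**Figure D3:**
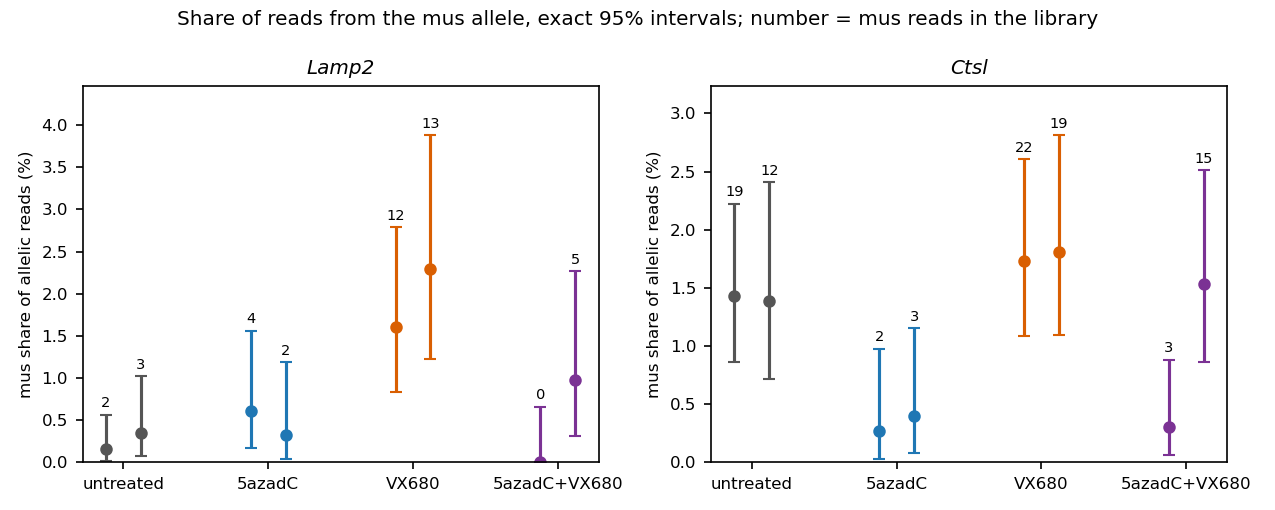
Mus share of allelic reads (vertical axis, %) of Lamp2 and Ctsl in each library, with exact 95% intervals and the number of mus reads above each. For Lamp2 the VX680 libraries hold 12 and 13 mus reads and every other library 0 to 5, and for Ctsl both 5azadC libraries and 1 library with both drugs hold 2 or 3.

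Ctsl, on chromosome 13, had almost only cas reads although it is autosomal. Its mus share was 1.41% over both untreated libraries, lower than in all but 194 of 10023 autosomal genes tested (1.94%). Mus reads were 19 and 12 in untreated cells (1.43% and 1.39% of allelic reads), 2 and 3 with 5azadC (0.272% and 0.398%), 22 and 19 with VX680 (1.73% and 1.81%), and 3 and 15 with both drugs (0.304% and 1.53%). Both 5azadC libraries lay below both untreated ones, and the libraries with both drugs lay on either side of that gap. The log2 change of the ratio with 5azadC was −2.03 ± 0.521 by edgeR (unadjusted p = 0.00046, adjusted p = 0.121) and did not pass. The authors' deposited table gives a log2 fold change of −2.48 for the mus allele of Ctsl with 5azadC, at a false discovery rate of 0.00827, and of −0.40 for the cas allele (0.0813). With both drugs against untreated the change was −0.63 ± 0.39 (adjusted p = 0.762), and it lay between −2.20 and 0.12 when 1 library was left out.

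The other 6 members were read from both alleles. In untreated cells the mus share was 71.0% for Ctsk, 63.8% for Hexa, 50.3% for Ctsb, 48.4% for Lamp1, 38.1% for Ctsd and 17.4% for Npc1, each over both libraries. Of 10023 autosomal genes, 772 had a lower mus share than Npc1. Ctsk had 237 mus of 324 allelic reads (73.1%) and 133 of 197 (67.5%) in untreated cells. With both drugs it had 18 of 35 (51.4%) and 27 of 49 (55.1%). The log2 change of its ratio between these groups was −1.06 ± 0.463 and did not pass (adjusted p = 0.522). Ctsd had 38.1% and 38.0% mus reads in untreated cells, 34.0% and 37.4% with 5azadC, 41.2% and 45.1% with VX680, and 41.8% and 39.7% with both drugs, with a change of 0.31 ± 0.134 between both drugs and 5azadC (adjusted p = 0.755).

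Of the 7 members besides Lamp2, none had a ratio called in edgeR in the 4 comparisons tested, nor had Lamp2 between both drugs and 5azadC. In these comparisons the share of all genes called in either direction was 0.282% for 5azadC against untreated, 0.515% for both drugs against untreated, 0.136% for both drugs against 5azadC and 0.126% for both drugs against VX680. Without Lamp2, members with an unadjusted p under 0.05 numbered 1, 1, 2 and 1. The limma test of the log2 ratios called 0 of them as well. On simulated ratios for both drugs against 5azadC the edgeR test found 96 of 100 genes changed by 1.5 on the log2 scale. It found 58 of 100 changed by 0.75. The changed genes averaged over 100 allelic reads a library and had a mus share not near either end. Spread between libraries beyond counting noise was not simulated. Lamp2, Ctsl and Npc1 had lower mus shares than those genes, so the rates do not cover them. In the libraries of this comparison Ctsk had 35 to 68 allelic reads each, and its ratio change had an SE of 0.519. The rates may therefore not hold for Ctsk either. Nor were they simulated for the other comparisons. Changes larger than 0.75 could therefore be missed as well.

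**Figure D4:**
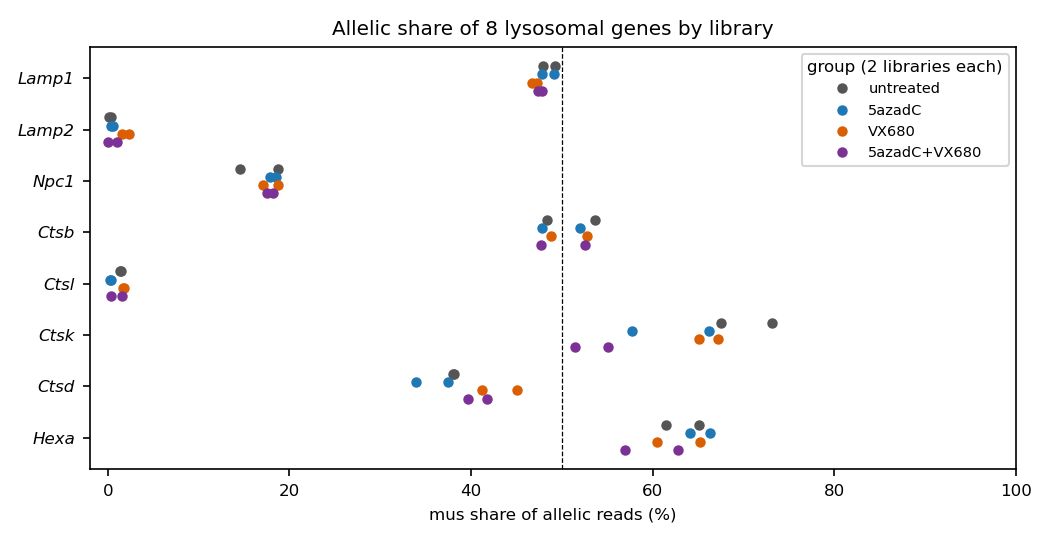
Mus share of allelic reads (horizontal axis, %, dashed line at 50) of the 8 genes in the 8 libraries, coloured by group. Lamp2 and Ctsl lie under 2.5% in every library, Npc1 between 14.6% and 18.8%, and Ctsk libraries with both drugs lie lowest for that gene.

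A list of 92 other genes linked to the lysosome, chosen with earlier results of these data known, was sorted by role. Its shares are set beside those of all genes as a description. Of the 92 genes, 88 could be tested, and Ctsc, Ctss, Ctse and Tfec had 0 to 9 reads in all libraries together. With 5azadC 6 of the 88 rose and 35 fell (6.82% and 39.8%, against 22.6% and 19.6% of all genes), with a median log2 fold change of −0.25. With VX680 12 rose and 31 fell (13.6% and 35.2%, against 23.8% and 22.4% of all genes), with a median of −0.13. Both drugs against untreated gave 12 rises and 42 falls (13.6% and 47.7%, against 28.4% and 27.3%) and a median of −0.26. Both drugs gave 10 rises and 10 falls against 5azadC (11.4% and 11.4%, against 9.98% and 14.8% of all genes), and 3 rises and 4 falls against VX680 (3.41% and 4.55%, against 2.45% and 4.05%), shares near those of all genes. Leaving out 1 library moved these last counts most: against 5azadC there were 17 rises without 5azadC replicate 2, 5 rises and 18 falls without 5azadC replicate 1, and 3 rises and 6 falls without replicate 1 of the combination or 5 and 3 without its replicate 2. Against VX680 there were 0 rises and 0 falls when either VX680 library or either library of the combination was left out, 2 falls without either untreated library, and 12 falls without either 5azadC library. The rises with 5azadC alone were 10 without 5azadC replicate 1, and those with VX680 alone 6 without untreated replicate 2 and 7 without either VX680 library. The 3 comparisons with untreated cells share the untreated libraries, and fibroblast markers moved both ways in them: of 9 tested, 5 fell with 5azadC, 6 with VX680 and 6 with both drugs, while 2, Vim and Thy1, rose in each. The part of those markers in the lysosomal counts was not tested.

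Enzymes that strip sugars and sulfate groups made up the largest role and mostly fell. Of 24 glycosidases and sulfatases 15 fell with 5azadC, 13 with VX680 and 16 with both drugs, with medians of −0.55, −0.40 and −0.61. These falls were 62.5%, 54.2% and 66.7% of the 24, against 19.6%, 22.4% and 27.3% of all genes. Man2b1, lysosomal alpha-mannosidase, averaged 187 CPM in untreated cells against 83.3 with 5azadC (log2 fold change −1.17 ± 0.0918, adjusted p = 5.84e-07), 103 with VX680 and 93.8 with both drugs. Gaa, the acid alpha-glucosidase that degrades glycogen, fell with 5azadC from 384 to 213 CPM (−0.85, adjusted p = 1e-05). It also fell with VX680 (−0.75, adjusted p = 2.12e-05) and with both drugs (−1.02, adjusted p = 8.92e-07). The only rises against untreated cells were of Gla, alpha-galactosidase A, with VX680 (0.70) and with both drugs (0.56), and of Gusb, beta-glucuronidase, with both drugs (0.53), named after their values were seen. Gusb also rose with both drugs against 5azadC (0.71, adjusted p = 0.000712) and against VX680 (0.55, adjusted p = 0.0124), and Glb1, beta-galactosidase, fell against VX680 (−0.44, adjusted p = 0.041).

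Lipid-degrading enzymes and lipid-binding proteins fell too: 5 of 11 with 5azadC, 7 with VX680 and 8 with both drugs, with medians of −0.35, −0.49 and −0.69. These falls were 45.5%, 63.6% and 72.7% of the 11, against 19.6%, 22.4% and 27.3% of all genes. Psap, the precursor of the saposins that help hydrolases reach sphingolipids, averaged 2382 CPM in untreated cells. It averaged 1649 with 5azadC (−0.53, adjusted p = 0.000178) and 1758 with VX680 (−0.44, adjusted p = 0.000648). With both drugs it averaged 1530 (−0.64, adjusted p = 1.87e-05). Ppt1, which removes palmitate from proteins, fell from 54.1 CPM to 34.1 with 5azadC (adjusted p = 0.000571), 31.6 with VX680 (adjusted p = 0.000153) and 29.1 with both drugs (adjusted p = 3.36e-05). Npc2, which hands cholesterol to Npc1, fell with 5azadC (−0.54, adjusted p = 0.000582) and VX680 (−0.55, adjusted p = 0.000409). Npc2 also fell with both drugs (−0.59, adjusted p = 0.00017). Acp2, an acid phosphatase (−0.81, adjusted p = 0.00175), and Lipa, the acid lipase (−0.65, adjusted p = 0.00493), fell with both drugs against 5azadC alone. Galc, which degrades galactosylceramide, was the single rise with VX680 (0.40) and is named after its value was seen.

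Of 9 other proteases tested, 6 fell with 5azadC, 4 with VX680 and 5 with both drugs. These falls were 66.7%, 44.4% and 55.6% of the 9, against 19.6%, 22.4% and 27.3% of all genes. The serine carboxypeptidase Scpep1 averaged 348 CPM in untreated cells, 188 with 5azadC (−0.89, adjusted p = 2.89e-06), 211 with VX680 (−0.72, adjusted p = 1.3e-05) and 178 with both drugs (−0.96, adjusted p = 5.68e-07). Ctsa, protective protein or cathepsin A, averaged 742 CPM in untreated cells and 412, 509 and 414 in the 3 treated groups (adjusted p = 5.11e-05, 0.00137 and 2.7e-05). Ctsz, cathepsin Z, rose with both drugs against 5azadC (0.30, adjusted p = 0.0257) and against VX680 (0.33, adjusted p = 0.0443). Ctsh, the 1 protease called higher with VX680 and named after its value was seen, had 0.136 CPM in untreated cells and 1.74 CPM with VX680.

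The cysteine protease inhibitors moved in opposite directions. Cst3, secreted cystatin C, averaged 1471 CPM in untreated cells, 908 with 5azadC (−0.70, adjusted p = 0.00362), 974 with VX680 (−0.59, adjusted p = 0.0084) and 638 with both drugs (−1.21, adjusted p = 3.06e-05). Cstb, cystatin B of the cytosol, averaged 51.8 CPM in untreated cells, 71.4 with 5azadC (0.46, adjusted p = 0.00384), 106 with VX680 (1.03, adjusted p = 4.35e-06) and 134 with both drugs (1.37, adjusted p = 1.81e-07). Both drugs also gave a rise of Cstb (0.91, adjusted p = 3.93e-05) and a fall of Cst3 (−0.51, adjusted p = 0.035) against 5azadC alone, and a fall of Cst3 against VX680 alone (−0.61, adjusted p = 0.0397).

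Of 16 subunits of the proton pump (the vacuolar ATPase), 8 rose and none fell with VX680, and 8 rose and 1 fell with both drugs (50% rising in each, against 23.8% and 28.4% of all genes). With 5azadC 2 rose and 1 fell, and its 12.5% of rises lay below the 22.6% of all genes. The medians with 5azadC, VX680 and both drugs were 0.08, 0.33 and 0.28. Atp6v1c1 averaged 26.9 CPM in untreated cells, 45.9 with 5azadC (0.75, adjusted p = 0.000422), 59.7 with VX680 (1.13, adjusted p = 1.02e-05) and 62.5 with both drugs (1.20, adjusted p = 3.43e-06). Atp6v0a2 rose with 5azadC (0.36, adjusted p = 0.0125) and with VX680 (0.41, adjusted p = 0.00516). It also rose with both drugs against untreated (0.32, adjusted p = 0.0187). Atp6v0b rose with VX680 (0.71, adjusted p = 0.000297) and with both drugs against untreated (0.67, adjusted p = 0.000362). Both drugs against 5azadC gave 6 rises and no fall among the 16 (37.5% rising, against 9.98% of all genes). They were led by Atp6v1g1 (25.1 to 51.7 CPM, 1.05 ± 0.148, adjusted p = 0.00021) and Atp6v0b (0.53, adjusted p = 0.00602). Atp6v1g1 also rose with both drugs against untreated (1.06, adjusted p = 3.73e-05) and against VX680 (0.81, adjusted p = 0.00512). Atp6v0a1 was the single subunit to fall, with 5azadC (−0.47) and with both drugs against untreated (−0.57) and against VX680 (−0.68, adjusted p = 0.0125), the first pair of values being named after they were seen.

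Among 17 other membrane proteins 4 fell with 5azadC, 5 with VX680 and 9 with both drugs, and 1 rose with both drugs (Tmem192, 0.54, named after its value was seen). The falls were 23.5%, 29.4% and 52.9% of the 17, against 19.6%, 22.4% and 27.3% of all genes, so the first pair of shares lay near those of all genes. Slc38a9, the arginine sensor that signals to mTORC1, fell with 5azadC (13.4 to 5.96 CPM, adjusted p = 0.00268). It also fell with both drugs (6.26 CPM, adjusted p = 0.00286), and its change with VX680 was not called (−0.53, adjusted p = 0.0934). The cystine exporter Ctns fell with 5azadC (32.2 to 17.5 CPM, adjusted p = 0.00275) and VX680 (17.5 CPM, adjusted p = 0.00217). With both drugs Ctns stood at 13.4 CPM (adjusted p = 0.000121). The ion channel Tmem175 averaged 29.1 CPM in untreated cells and 19.3 with 5azadC (−0.60, adjusted p = 0.0104). It averaged 12.2 with VX680 (−1.25, adjusted p = 5.06e-05) and 11.3 with both drugs (−1.36, adjusted p = 1.89e-05). Laptm4a, a small transmembrane protein, averaged 431 CPM in untreated cells and 342 with 5azadC (adjusted p = 0.0155). It averaged 281 with VX680 (adjusted p = 0.000226) and 249 with both drugs (adjusted p = 1.77e-05). The level with both drugs was also lower than with 5azadC alone (adjusted p = 0.00516). Scarb2, the receptor that carries beta-glucocerebrosidase to lysosomes, fell with both drugs against 5azadC (−0.64, adjusted p = 0.00152).

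Of 6 genes that sort hydrolases, 2 rose and 3 fell with 5azadC (33.3% and 50%, against 22.6% and 19.6% of all genes). None rose with VX680 or with both drugs against untreated, where 1 and 2 fell (16.7% and 33.3%, against 22.4% and 27.3%). The rises were of Nagpa (0.58, adjusted p = 0.01) and M6pr (0.32, adjusted p = 0.0376), named after their values were seen. Sort1, the sorting receptor sortilin, averaged 104 CPM in untreated cells and 40.7 with 5azadC (−1.37, adjusted p = 1.63e-05). With both drugs it averaged 51.6 CPM (−1.01, adjusted p = 9.38e-05), and it fell against VX680 as well (−0.65, adjusted p = 0.0268). Igf2r, the large mannose 6-phosphate receptor, averaged 398 CPM in untreated cells and 311, 289 and 294 CPM in the 3 treated groups (adjusted p = 0.00466, 0.000619 and 0.000698). Tfe3, a transcription factor that drives lysosomal genes, rose with 5azadC from 69.2 to 106 CPM (0.62, adjusted p = 0.00207) and stood at 71.4 CPM with both drugs, lower than with 5azadC alone (−0.57, adjusted p = 0.00702).

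**Figure D5:**
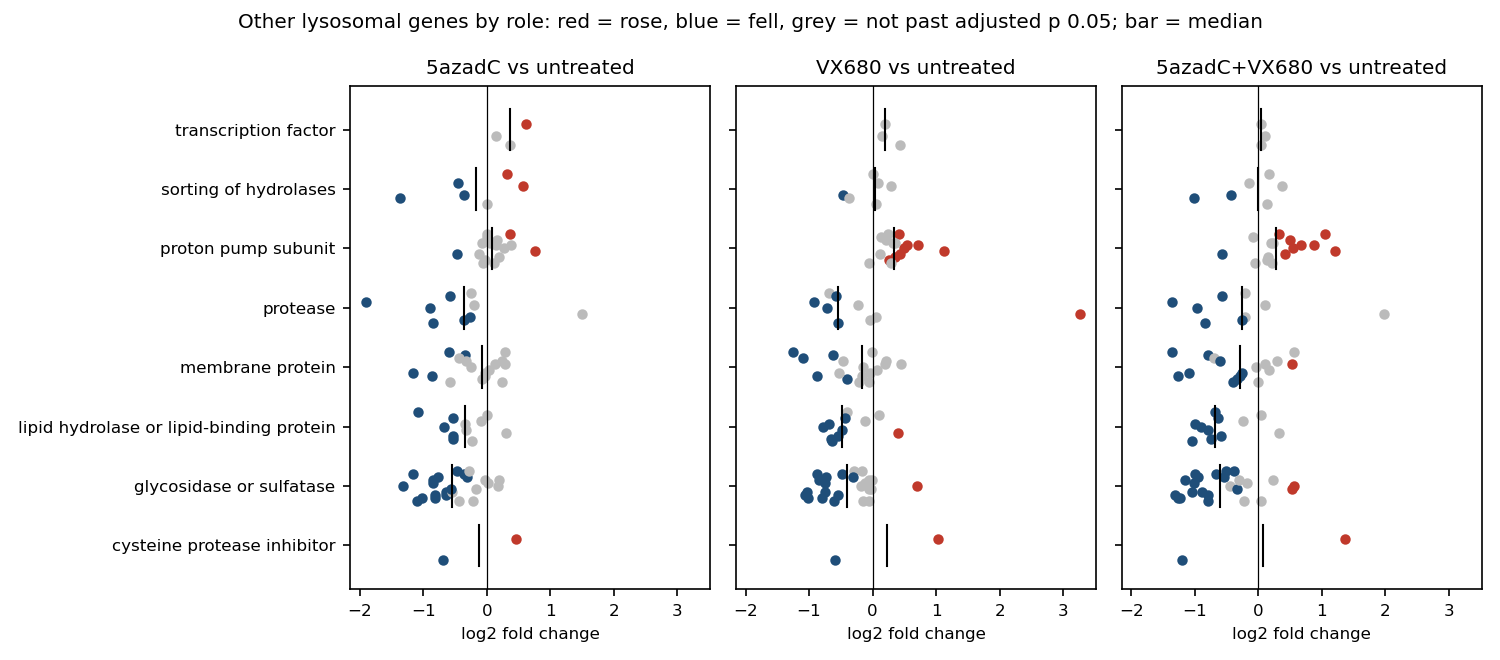
Log2 fold change (horizontal axis) of 88 other lysosomal genes by role in the 3 comparisons with untreated cells, with red for rises, blue for falls and grey for genes not past an adjusted p of 0.05, and a bar at each role's median. Glycosidases and sulfatases lie mostly left of 0 in each panel (medians −0.55, −0.40 and −0.61), and proton pump subunits mostly right of it with VX680 and with both drugs (medians 0.33 and 0.28).

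Besides Lamp2, 4 X-linked lysosomal genes had enough allelic reads, and none of their ratios was called in any of the 5 comparisons. Ids, iduronate 2-sulfatase, had 1 mus beside 223 cas reads and 0 beside 91 in untreated cells. With 5azadC it had 1 beside 131 and 2 beside 93. It had 9 beside 153 and 2 beside 124 with VX680, and 5 beside 105 and 1 beside 122 with both drugs. Every treated library of Ids thus lay above both untreated ones in mus share, not only those with VX680. The log2 change of the ratio was 3.30 ± 1.12 with VX680 (edgeR adjusted p = 0.408). It was 1.85 ± 1.47 with 5azadC (adjusted p = 0.916) and 2.75 ± 1.26 with both drugs (adjusted p = 0.564). Tfe3 had 0 to 2 mus reads in every library beside 75 to 190 cas reads. Atp6ap1 and Atp6ap2, accessory proteins of the proton pump, had mus shares from 8% to 77.8% and from 11% to 50% between libraries. The highest Atp6ap1 share rested on 9 allelic reads. Libraries of 1 group also differed widely: with 5azadC Atp6ap1 had 62.5% of 8 allelic reads and 8% of 50. In the same libraries Atp6ap2 had 18.5% of 65 and 50% of 42.

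The X-linked genes nearest to Lamp2 in mus share over the 8 libraries, out of 272 candidates, were Col4a5 (Euclidean distance 1.78 percentage points), Iqsec2 (2.05), Elk1 (2.11), Maged1 (2.15) and Vbp1 (2.30). Their mus reads in the VX680 libraries were 2 and 3 for Col4a5, 0 and 4 for Maged1, and 0 and 1 for each of Iqsec2, Elk1 and Vbp1. The measure thus mainly finds genes with few mus reads in every library, and none of the 5 had 12 or more in any library. For Ctsk, the genes with the highest correlation of log2 CPM over the 8 libraries, of 12642 others, were Sec16b (Pearson r = 0.997), Rora (0.996), Edem3 (0.994), Pcyt1b (0.994) and Narf (0.994). Rora averaged 59.0 CPM in untreated cells, 21.9 with 5azadC, 22.9 with VX680 and 14.8 with both drugs. These points share libraries, depth and the 4 groups, so the values describe likeness only.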

How the data were processed

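Strand-specific libraries (dUTP method) of Trizol-extracted total RNA numbered 8, with 2 in each of 4 groups read from the sample labels. The submitters' processing notes name mm9, TopHat2 2.0.10, HOMER 4.8 and edgeR, without saying what each did. The authors deposited raw counts per gene, both alleles together, with a gene length column (another quantity, in bases, per the file headers), and raw counts per allele. Their normalized signal, per the file headers, equals raw counts times 1 factor per library in 100% of values (relative tolerance 0.001) and was not used in tests. The log2 fold changes and the p-values with false discovery rates of the authors' deposited tables were used only where named.

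Total counts were tested with edgeR 4.0.16 in R 4.3.3: filterByExpr, TMM, 1 mean per group over all 8 libraries, quasi-likelihood F tests, and Benjamini-Hochberg adjusted p under 0.05 over all 12643 genes. CPM uses TMM-scaled library sizes, and log2 CPM a prior count of 2. Allelic ratios were tested by edgeR on mus and cas counts with library terms and 1 mus coefficient for each group, where allelic reads averaged 10 or more a library (10023 autosomal, 278 X-linked). Intervals of single-library shares are exact binomial (Clopper-Pearson, 95%), and where no read was seen the limit is that of 3 counts. With 2 libraries a group an exact permutation of 1 value cannot go below p = 0.333.

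For both drugs against 5azadC, counts were also simulated with the same relative spread between libraries for every gene. There the total test found 78 of 100 genes changed by 1 on the log2 scale and 8 of 100 changed by 0.5. The fit of the real counts estimated that spread for each gene and called Ctsd at 0.31 in this comparison. The simulated rates therefore do not carry over to it. Libraries of a group differed by more than counting noise (chi-square per degree of freedom 2.80 to 20.9, the highest for 5azadC). Alternatives were DESeq2 1.42.0, no filter, library totals, limma 3.58.1 on log2 ratios with a pseudocount of 0.5, allelic minimums of 5 and 20 reads, the replicate number as a block, and leaving out each library. The members and gene lists were chosen with earlier results of these data known. Named genes are all members, for each role and comparison the 2 called genes with the smallest p, X-linked lysosomal genes with enough allelic reads, and the 5 genes most alike in pattern. A gene that this rule would name is not reported here. Sequences come from GENCODE M21 transcripts (GRCm38), which is not the files' build, so no coordinates are given.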

Additional observations from a re-analysis of the deposited data

How the results depend on the processing

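For 5azadC against untreated, 0 members were called higher and 4 lower under every alternative run. For both drugs against untreated, Npc1 lost its call in 3 alternatives and Lamp1 gained one with library totals, and the other 5 calls held in all. Both drugs against 5azadC called 1 member lower, but 2 without the filter on low counts, 0 with library totals, 2 with the replicate block, and 0 to 2 with 1 library left out. Against VX680 it called 0 lower, but 1 without the filter, 1 with the replicate block and 0 to 1 with a library left out. Replicate numbers did not pair the libraries (correlations of replicate differences between groups −0.0622 to 0.0326), so that block describes only a shared number, and it left the log2 ratio change of Lamp2 at 0.95 with 5azadC. Library totals moved the median of all genes by 0.104 for VX680 against untreated, 0.104 for both drugs against untreated and 0.108 against 5azadC. The share of calls that were rises went from 51.5% to 61.8% in the first and from 40.2% to 59.1% in the last.

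Uncalled values near 0 changed sign. For 5azadC against untreated Lamp1 was −0.0079 with DESeq2 and −0.00014 with library totals. With 1 library left out, Lamp1 ranged from −0.045 to 0.039, Npc1 from −0.24 to 0.075, Ctsb from −0.083 to 0.086 and Ctsd from −0.076 to 0.17 in that comparison. Hexa ranged from −0.17 to 0.35 for both drugs against 5azadC, and, against VX680, Npc1 from −0.14 to 0.041 and Ctsl from −0.0050 to 0.089. The log2 ratio change of Lamp2 ranged from −3.79 to 2.01 for both drugs against untreated, from −4.79 to 1.02 against 5azadC and from −6.77 to −0.96 against VX680. Its low ends leave only the library with 0 mus reads, where the fitted size depends on the prior count, and there, without replicate 2 of the combination, the count of members past the threshold against VX680 was 1 (0 to 1 over all). That member is Lamp2, set against libraries that chose it, so this is no test. For Ctsl the ratio change ranged from −2.20 to 0.12 against untreated and from −0.17 to 2.15 against 5azadC.

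Among other lysosomal genes, leaving out 1 library gave 4 to 10 rises with 5azadC and 6 to 17 with VX680. For both drugs it gave 3 to 17 rises and 3 to 18 falls against 5azadC, and 0 to 4 rises and 0 to 12 falls against VX680, where DESeq2 gave 2 falls. Over all genes, both drugs against 5azadC gave 1262 rises and 1944 with library totals. Against VX680 there were 310 rises and 512 falls, and 514 and 785 without the filter. With 1 library left out, both drugs gave 571 to 1310 rises and 1058 to 1902 falls against 5azadC, the fewest without a library of the combination. Against VX680 they gave 29 to 665 rises and 85 to 921 falls: 29 to 43 and 85 to 136 without a library of VX680 or the combination, and 645 to 665 and 901 to 921 without one of 5azadC. Allelic calls over all genes were 29, 53, 14 and 13 in the 4 comparisons, and 3, 2, 0 and 0 with limma. They ranged over 18 to 36, 23 to 63, 11 to 18 and 7 to 20 with 1 library left out. The last 2 became 29 and 21 with a minimum of 5 reads, and the last 8 with a minimum of 20. The cause of these changes was not tested. Depth limits the allelic results: Lamp2 and Ctsl had 0 to 22 mus reads a library.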
